A study of Mus musculus with 14 samples.

Results

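Brain RNA of adult KO3 mice was compared with that of adult wild-type mice, gene by gene, and each KO3 library was followed on its own. KO3 mice lacked 3 differentially methylated regions (DMRs), those of H19, IG and Rasgrf1, and were produced with haploid embryonic stem cells carrying the deletions. The comparison used 4 of the 14 libraries of the series: KO3 libraries 1 and 2, and libraries 1 and 2 of the second wild-type set (set 2), which carries no DMR deletion. These 4 were chosen by their titles, and set 2 rather than set 1 was taken because its columns and those of KO3 share a pattern of genes listed at 0. The labels give tissue (brain), stage (adult) and genotype, but no age in weeks, sex, strain or brain region. The labels do not say it, but the study is known to have combined a pair of maternal genomes in KO3 mice, so the deletions and the parental origin of the genomes cannot be told apart here. The labels do not say that libraries came from separate animals, and p-values therefore measure the spread between these libraries, which may be technical.

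DMRs are stretches of DNA methylated on the maternal or on the paternal chromosome only, and they set which parental copy of the neighbouring genes is read. The H19-DMR sits between Igf2, a fetal growth factor gene read from the paternal copy, and H19, a non-coding RNA read from the maternal copy. The IG-DMR controls the Dlk1-Dio3 cluster, and the Rasgrf1-DMR lets the paternal copy of Rasgrf1, a Ras activator of neurons, be read. Brain tissue mixes neurons, glia, vessels and blood, and in bulk RNA fewer cells of a type and less RNA per cell cannot be told apart.

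Levels are FPKM (fragments per kilobase of transcript, scaled to the mapped fragments of the library). Differences are on the log2(FPKM + 1) scale, KO3 minus set 2, with adjusted p-values from limma. A gene was tested where at least 2 of the 4 libraries reached 1 FPKM, which 13142 genes did. A gene is said to have risen or fallen where its adjusted p was under 0.05. The number of reads is not known, and 12690 to 12996 genes per library had 1 FPKM or more.

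The tissue label was checked first. All 12 defining genes of brain were tested, with summed levels of 4620 and 4518 FPKM in KO3 and 4305 and 3617 in set 2. Their median difference was 0.18, and -0.60 under quantile scaling. Mbp, the main structural protein gene of myelin, was chosen after its values were seen and had 1567 and 1511 FPKM in KO3 and 1404 and 1042 in set 2. Of 8 defining genes of other tissues, 6 were listed at 0 in every library, the albumin gene Alb among them. Their summed level was 5.68 and 8.18 FPKM in KO3 and 3.45 and 2.73 in set 2. The Y-linked genes Ddx3y, Eif2s3y, Kdm5d and Uty were listed at 0 in all 4 libraries. Xist, which silences the inactive X chromosome, had 43.7 and 21.5 FPKM in KO3 and 72.6 and 59.1 in set 2. Xist lay lower in both KO3 libraries and missed the threshold (log2 difference -1.07, adjusted p = 0.0877). Its antisense partner Tsix had 17.9 and 20.6 FPKM in KO3 against 16.5 and 16.8, and without a statement on strand the reads of this pair cannot be told apart.

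KO3 library 2 stood further from wild type than library 1. The SD over all tested genes of the difference from the set 2 mean was 0.35 in library 1 and 0.72 in library 2. Library 1 had 138 genes more than 1 log2 unit above the set 2 mean (1.05% of those tested) and 30 more than 1 below (0.228%). Library 2 had 1178 above (8.96%) and 728 below (5.54%). Pearson's r across genes was 0.964 between the KO3 libraries and 0.988 between the set 2 libraries. KO3 library 1 was closer to the set 2 libraries (0.973 and 0.980) than to KO3 library 2, while library 2 had 0.915 and 0.928 with set 2. On the first principal component (81.3% of the variance) library 1 lay at 2.75, library 2 at 54.01, and the set 2 libraries at -31.8 and -25.0. Results below are therefore given for each KO3 library apart. Set 2 library 2 stood out in ribosomal RNA: the Rn45s entry (the ribosomal RNA precursor) had 3698 FPKM there, 882 in set 2 library 1, and 486 and 817 in KO3.

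In all, 87 genes passed (0.662% of those tested). Of these, 76 were higher in KO3 (0.578%) and 11 lower (0.0837%). The unadjusted p was under 0.05 for 3027 genes. No gene passed after median-of-ratios or quantile scaling of the libraries (smallest adjusted p = 0.217 and 0.172), which holds for every rise and fall named here. Leaving out KO3 library 1 gave 2769 higher and 2830 lower, and leaving out KO3 library 2 gave 409 and 109. Without set 2 library 1 the counts were 53 and 14, and without set 2 library 2 they were 93 and 35. All 87 had non-overlapping libraries, against a background of 31.3% of tested genes with both KO3 libraries above set 2 and 28.0% with both below. By the mean difference, 6286 tested genes lay above set 2 and 6856 below, the base for all list counts given here. The 76 genes that rose had a median difference of 1.31 in library 1 and 1.84 in library 2, and 70 of them lay further from wild type in library 2. For the 11 that fell the medians were -1.31 and -1.75, with 8 further out in library 2.

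**Figure D1:**
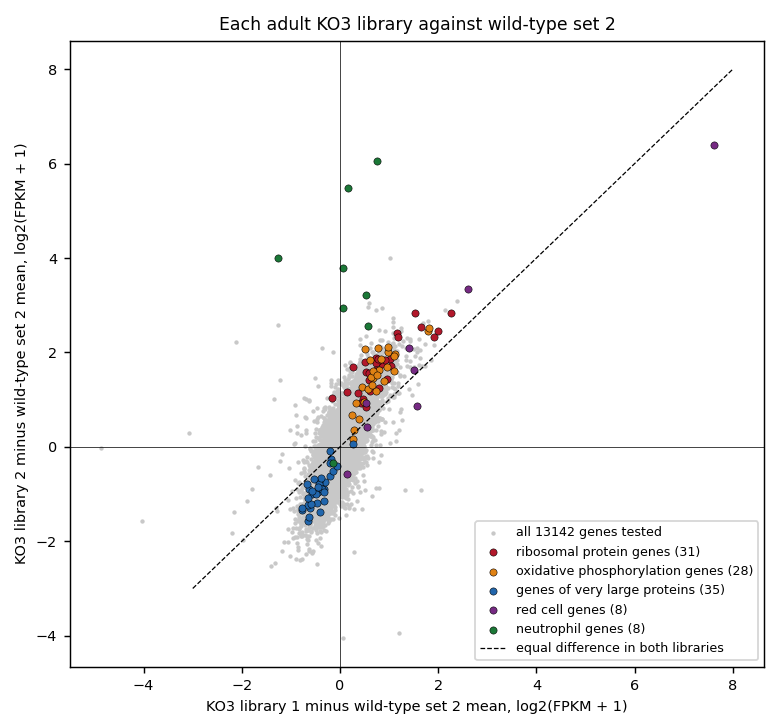
Difference of KO3 library 1 (horizontal axis) and KO3 library 2 (vertical axis) from the set 2 mean on log2(FPKM + 1), 1 point per tested gene, with 5 gene lists in colour and a dashed line of equal difference. Most ribosomal protein genes lie above 0 in both libraries, genes of very large proteins lie mostly below 0, and 7 of 8 neutrophil genes lie high on the vertical axis with little or no gain on the horizontal.

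**Figure D2:**
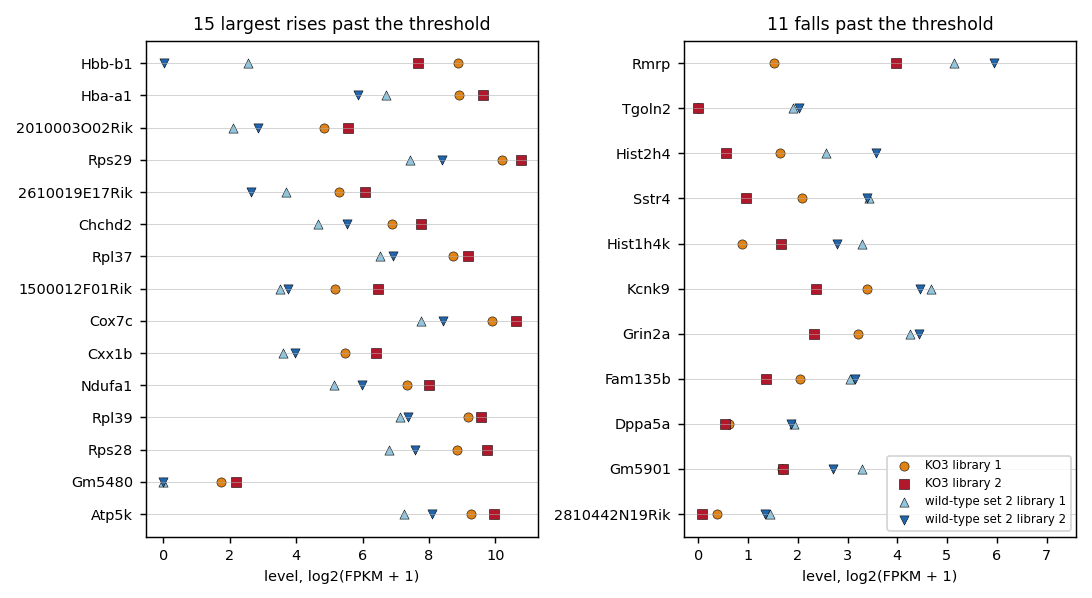
Level on log2(FPKM + 1) in each of the 4 libraries for the 15 largest rises (left) and the 11 falls (right), 1 row per gene and 1 marker per library. The rows were picked from passing genes whose KO3 and set 2 libraries do not overlap, and Hbb-b1 has the widest gap.

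The genes at the 3 deleted regions come next, since these are what the genotype acts on. None of the 7 tested members passed and none had non-overlapping libraries. Their median difference was -0.08 in KO3 library 1 and 0.01 in library 2, against 0.03 and -0.08 over all genes tested. With both KO3 libraries it was -0.21, and it was -0.05 without set 2 library 1 and -0.04 without set 2 library 2, so its size was not stable. Its sign changed only without KO3 library 1, where it was 0.01. Without KO3 library 1, 1 member passed as higher. Rasgrf1 had 104 FPKM in KO3 library 1, 85.3 in library 2, and 149 and 97.2 in set 2. Its KO3 level overlapped wild type (log2 difference -0.35, SE 0.28, adjusted p = 0.461). Igf2 had 22.2 and 18.4 FPKM in KO3 and 19.8 and 27.9 in set 2, again with overlap (log2 difference -0.21, SE 0.25, adjusted p = 0.625). H19 was listed at 0 in all 4 libraries, so nothing can be said of its change.

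In the Dlk1-Dio3 cluster, Meg3, a maternally expressed non-coding RNA, had 341 and 559 FPKM in KO3 and 401 and 354 in set 2. Library 1 lay below both wild-type libraries and library 2 above both (log2 difference 0.21, adjusted p = 0.734). Rian, another maternal non-coding RNA, had 157 and 121 FPKM in KO3 against 155 and 169. Mirg, the host transcript of many microRNAs, had 17 and 28 FPKM in KO3 and 16.3 and 16.7 in set 2. Its name is caught by the rule that leaves out microRNA rows, and with those rows kept it missed the threshold (log2 difference 0.38, adjusted p = 0.393). Among the paternally expressed genes, Dlk1, a Notch-like surface protein, had 8.63 and 8.90 FPKM in KO3 against 9.05 and 7.12. Rtl1, a retrotransposon-derived gene, had 0.930 and 1.67 against 1.68 and 1.62. Dio3, which inactivates thyroid hormone, had 1.01 and 1.53 against 0.816 and 1.10. Each of these overlapped wild type.

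Of imprinted genes outside the deleted regions, 1 of 42 tested passed, against 0.662% of all tested genes. It was Kcnk9, a maternally expressed potassium leak channel of neurons, with 9.47 FPKM in KO3 library 1, 4.13 in library 2, and 24.6 and 20.9 in set 2. Kcnk9 was low in both KO3 libraries, lowest in library 2, and fell by 1.69 on the log2 scale (SE 0.31, adjusted p = 0.0349). Ago2, the slicing Argonaute protein encoded near Kcnk9, had 7.64 and 4.16 FPKM against 13.7 and 12.7 (adjusted p = 0.0727). The 18 maternally expressed genes had a median of -0.04 in library 1 and -0.29 in library 2, and the 24 paternally expressed genes -0.01 and -0.19. The medians over all tested genes were 0.03 and -0.08. Without overlap, 5 of the maternally expressed genes lay above set 2 and 8 below. Of the paternally expressed genes, 5 lay above without overlap and 9 below. The shares over all tested genes were 31.3% above and 28.0% below. Among paternally expressed genes, Nnat, a small membrane protein of neurons, had 185 and 350 FPKM in KO3 and 127 and 143 in set 2 (adjusted p = 0.138). Peg3, a zinc finger gene, had 51.2 and 31.2 against 76.1 and 59.9 (adjusted p = 0.149). Ndn had 180 and 255 FPKM against 119 and 139, and Zim3 5.94 and 2.56 against 9.06 and 9.06. Cdkn1c, a cell cycle inhibitor, had 5.85 and 7.98 against 3.8 and 3.4, and Zim1 0.921 and 0.443 against 1.73 and 1.52; none of these passed.

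Snurf was the gene furthest below KO3 library 1 in KO3 library 2, among genes whose set 2 libraries differed by under 0.5 on the log2 scale. It is read in 1 transcript with Snrpn, a paternally expressed splicing factor gene. Snurf had 99.2 FPKM in KO3 library 1, 4.82 in library 2, and 85.6 and 106 in set 2, so library 1 lay within wild type and library 2 far below it. Snrpn itself, chosen after its values were seen, had 369 and 483 FPKM in KO3 and 322 and 238 in set 2. The 2 genes overlap, so the division of their fragments is uncertain.

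The broadest difference from set 2 was in genes of the translation and respiration machinery. Of 31 ribosomal protein genes all 31 lay above set 2 on average, 29 with both KO3 libraries above both wild-type libraries, and 4 passed. Their median difference was 0.77 in library 1 and 1.76 in library 2. All 28 nuclear genes of oxidative phosphorylation lay above set 2 with no overlap, 2 passed, and the medians were 0.70 and 1.57. Over all tested genes 31.3% lay above set 2 with no overlap, and 0.578% passed as higher. Ribosomal protein genes have many near-identical pseudogenes, so their single values are uncertain where reads could be divided among copies. Under quantile scaling the list medians were 0.54 for each list, still above 0. Against all 4 adult wild-type libraries they were 0.67 and 0.65, with no member passing. The wild-type sets themselves differed. Ribosomal list sums were 8821 and 10581 FPKM in set 2, 26315 and 25201 in set 1, and 19061 and 38792 in KO3. Respiration list sums were 6092 and 6745 in set 2, 14460 and 13271 in set 1, and 10917 and 18978 in KO3. KO3 library 1 thus lay below set 1 in both sums.

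The promoters of 3 of the genes that rose are shown because members of these lists moved together. Each window runs from 250 bases before to 50 after the gene's start (RefSeq, GRCm38.p6, whereas the deposited values rest on mm9). Rpl37 and Rpl39 encode proteins of the large ribosomal subunit, and Atp5k a subunit of ATP synthase. Capitals mark CCGGAAG or its reverse complement CTTCCGG, the core of sites for ETS-family factors, and in Atp5k also the NRF1 palindrome. The Rpl37 window is chr15:5116363-5116662, plus strand, the Rpl39 window chrX:37085173-37085472, minus strand, and the Atp5k window chr5:108434350-108434649, minus strand.
Rpl37: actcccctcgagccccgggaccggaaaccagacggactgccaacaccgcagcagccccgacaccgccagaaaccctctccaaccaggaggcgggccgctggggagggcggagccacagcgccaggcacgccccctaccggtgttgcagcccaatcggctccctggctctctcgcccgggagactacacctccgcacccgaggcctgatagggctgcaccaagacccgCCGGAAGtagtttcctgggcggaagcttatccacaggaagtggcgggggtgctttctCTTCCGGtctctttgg
Rpl39: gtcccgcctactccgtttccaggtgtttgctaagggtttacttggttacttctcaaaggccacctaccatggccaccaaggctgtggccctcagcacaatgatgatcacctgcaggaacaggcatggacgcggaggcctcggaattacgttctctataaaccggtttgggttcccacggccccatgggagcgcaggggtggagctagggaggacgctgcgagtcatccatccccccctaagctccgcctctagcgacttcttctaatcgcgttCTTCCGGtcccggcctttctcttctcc
Atp5k: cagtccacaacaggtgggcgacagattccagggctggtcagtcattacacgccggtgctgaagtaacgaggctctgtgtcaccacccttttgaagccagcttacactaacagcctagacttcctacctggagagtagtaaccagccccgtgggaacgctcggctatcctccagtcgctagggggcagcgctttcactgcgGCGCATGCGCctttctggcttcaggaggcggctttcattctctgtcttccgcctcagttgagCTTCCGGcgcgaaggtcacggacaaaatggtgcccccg
On both strands, the ETS core was present in 10 of 25 promoter windows of the ribosomal protein list and in 7 of 23 of the oxidative phosphorylation list. These windows cover 23 and 22 genes. Over all 32851 promoter windows of that length the share was 8.86%. The NRF1 palindrome was in 1 window of each list, and in 0.971% of all windows. The matches do not overlap each other, and a match is a description of letters, not of binding.

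Rps29, a zinc-binding protein of the small subunit, had 1162 and 1729 FPKM in KO3 and 172 and 337 in set 2. It had the largest rise of the ribosomal list (log2 difference 2.55, SE 0.42, adjusted p = 0.0227). Rpl37 had 420 and 577 FPKM in KO3 against 91.3 and 120 (log2 difference 2.23, adjusted p = 0.0103). Both KO3 libraries were high, with library 2 highest. Rpl39 had 572 and 764 FPKM against 139 and 164 (log2 difference 2.12, adjusted p = 0.0179), and Rps28 458 and 853 against 111 and 191 (log2 difference 2.09, adjusted p = 0.0349). Rpl38, chosen after its values were seen as the most abundant transcript of both KO3 libraries, had 3722 and 8913 FPKM against 1318 and 2099. Its libraries did not overlap and it missed the threshold (adjusted p = 0.130).

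For respiration, Cox7c, a small subunit of cytochrome c oxidase, had 960 and 1574 FPKM in KO3 and 217 and 343 in set 2 (log2 difference 2.17, adjusted p = 0.0349). Ndufa1, a small subunit of complex I, had 162 and 256 FPKM against 34.1 and 61.8 (log2 difference 2.12, adjusted p = 0.0192). Atp5k had 618 and 992 FPKM against 151 and 272 (log2 difference 1.94, adjusted p = 0.0459). In each of these genes library 1 lay between set 2 and library 2. Chchd2, a mitochondrial intermembrane protein, had 116 and 216 FPKM against 23.9 and 45.5 (log2 difference 2.23, adjusted p = 0.0192). Hspe1, the small mitochondrial chaperonin and the only 1 of 15 heat shock genes to pass, had 147 and 219 against 40.8 and 63.8 (log2 difference 1.79, adjusted p = 0.0244). The share passing as higher over all tested genes was 0.578%. The median of the heat shock list was 0.40, and 0.06 under quantile scaling.

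At the other end stood genes of very large proteins. A list of 35 such genes was drawn up after the data were seen, because the genes above encode very small proteins, and it is a description only. Of the 35, 34 lay below set 2 and 33 had both KO3 libraries below both wild-type libraries, against the background of 28.0%. None of them passed, and the medians were -0.43 in library 1 and -0.89 in library 2. Huwe1, a giant ubiquitin ligase, had 24.4 and 14.8 FPKM in KO3 and 41.1 and 34.3 in set 2. Bsn, a scaffold of the presynaptic active zone, had 24.7 and 22.7 against 40.4 and 39.2. Htt, the huntingtin gene, had 11.1 and 5.75 against 18.7 and 16.9. The ribosomal and respiration lists and this list thus lay on opposite sides of set 2 in both KO3 libraries, further out in library 2. These 3 genes were chosen after their values were seen. Transcript length was not used here, and its part in the differences was not tested.

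**Figure D3:**
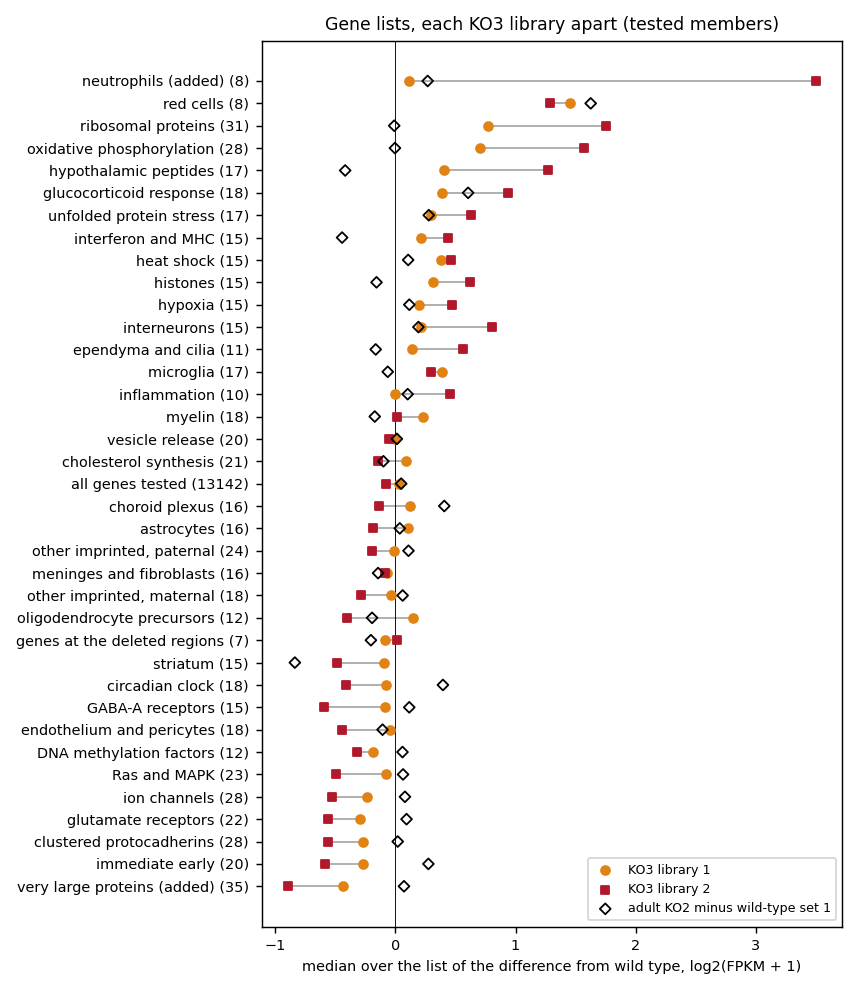
Median over each gene list of the difference from wild type on log2(FPKM + 1), for KO3 library 1 (circles) and library 2 (squares) against set 2, with adult KO2 against wild-type set 1 as open diamonds and the number of tested members in brackets. Library 2 lies further from 0 than library 1 in most lists. Its median is 1.76 for ribosomal proteins and -0.89 for very large proteins, while KO2 lies near 0 in both.

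Neuronal receptors, channels and adhesion molecules mostly lay on the low side. Of 22 glutamate receptor genes 19 lay below set 2, 14 with no overlap, and 1 passed. That gene was Grin2a, the NMDA receptor subunit of mature synapses, with 8.25 and 4.0 FPKM in KO3 and 18.2 and 20.6 in set 2. Grin2a was low in both KO3 libraries and fell by 1.58 on the log2 scale (SE 0.29, adjusted p = 0.0349). Grm4, a metabotropic receptor of cerebellar granule cells, had 18.4 and 8.21 FPKM against 30.6 and 34.7 (adjusted p = 0.0679), and Grin3a 2.53 and 0.967 against 4.75 and 3.75 (adjusted p = 0.0943). The list medians were -0.30 in library 1 and -0.56 in library 2. Over all tested genes 28.0% lay below set 2 with no overlap, and 0.0837% passed as lower.

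Of 28 voltage-gated and related ion channel genes 25 lay below set 2, 21 with no overlap, and none passed (medians -0.24 and -0.53). Kcnq3, a subunit of the M-current channel, had 7.97 and 3.8 FPKM in KO3 against 15.2 and 14.6 (adjusted p = 0.0654), and Kcnj6, a G-protein-gated potassium channel, 8.43 and 6.10 against 18.6 and 15.8 (adjusted p = 0.0565). Clustered protocadherins, which give neurons surface identities, lay below set 2 in 27 of 28 tested members, 18 with no overlap and none passing (medians -0.27 and -0.56). For the channels and the protocadherins, the no-overlap share over all tested genes was 28.0%. GABA-A receptor genes lay below in 13 of 15, with no member passing (medians -0.09 and -0.60). Sstr4, a somatostatin receptor, fell from 9.84 and 9.51 FPKM in set 2 to 3.23 and 0.951 in KO3 (log2 difference -1.89, adjusted p = 0.0285). Fam135b also fell, with 3.12 and 1.56 FPKM against 7.33 and 7.90 (log2 difference -1.41, adjusted p = 0.0439).

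Of 20 genes of synaptic vesicle release, 10 lay above and 10 below set 2, with a median of -0.01 that became -0.61 under quantile scaling. Rims1 and Unc13a, large active zone proteins, had 24 and 12.6 FPKM against 37.9 and 40.6, and 24.6 and 19.2 against 43.7 and 39.6 (adjusted p = 0.0718 and 0.0748). Immediate early genes, which neurons switch on with activity, lay below set 2 in 17 of 20 with none passing (medians -0.27 and -0.59). Only 6 of the 20 had both KO3 libraries below both set 2 libraries, a share near the 28.0% of all tested genes. The median over both KO3 libraries was -0.51, and it was -0.17 without set 2 library 1, -0.78 without set 2 library 2 and -0.19 against all 4 adult wild-type libraries. Npas4 had 5.32 and 2.22 FPKM in KO3 against 17.5 and 8.28 (adjusted p = 0.0679), and Arc 60.1 and 14.3 against 120 and 58.2 (adjusted p = 0.125). The set 2 libraries themselves differed in these genes. Of 23 genes of Ras exchange factors and the MAPK cascade, the pathway that Rasgrf1 feeds, 16 lay below set 2 and none passed (medians -0.08 and -0.49). Of these, 7 did not overlap set 2, again a share near the background.

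Red cell genes gave the largest single rise. Of 8 tested red cell genes 7 lay above set 2 with no overlap and 3 passed, with medians of 1.45 in library 1 and 1.28 in library 2. The shares over all tested genes were 31.3% above with no overlap and 0.578% passing as higher. Hbb-b1, an adult beta-globin gene, had 472 FPKM in KO3 library 1, 203 in library 2, 4.83 in set 2 library 1 and 0.00242 in set 2 library 2 (log2 difference 7.01, SE 0.60, adjusted p = 0.000591). Hba-a1, the adult alpha-globin gene, had 476 and 795 FPKM against 104 and 57.5 (log2 difference 2.97, SE 0.36, adjusted p = 0.00468). Hbb-bs, another adult beta-globin gene, had 121 and 196 against 57.1 and 36.2 (log2 difference 1.74, adjusted p = 0.0322). The KO3 libraries were high for all of these, and the order of libraries 1 and 2 differed between genes. Hbb-bt had 33.7 and 36.8 FPKM against 6.91 and 17.7 (adjusted p = 0.0548), and Alas2, the heme synthesis enzyme of red cells, 17 and 10.1 against 7.66 and 3.29. Hba-a2 and Slc4a1 were listed at 0 in all 4 libraries.

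The beta-globin entries Hbb-b1, Hbb-bs and Hbb-bt are near-identical in sequence, so the division of fragments among them is uncertain. In the set 1 libraries Hbb-b1 had 0.0609 and 112 FPKM. The labels give no strain, and its part in the Hbb-b1 difference was not tested. The promoters of Hba-a1 and Hbb-bs are shown because both genes rose. Capitals mark the TATAA box, the CACCC box and the CCAAT box, all known from globin promoters and searched for on both strands. The Hba-a1 window is chr11:32283422-32283721, plus strand and the Hbb-bs window chr7:103827879-103828178, minus strand, both RefSeq, GRCm38.p6.
Hba-a1: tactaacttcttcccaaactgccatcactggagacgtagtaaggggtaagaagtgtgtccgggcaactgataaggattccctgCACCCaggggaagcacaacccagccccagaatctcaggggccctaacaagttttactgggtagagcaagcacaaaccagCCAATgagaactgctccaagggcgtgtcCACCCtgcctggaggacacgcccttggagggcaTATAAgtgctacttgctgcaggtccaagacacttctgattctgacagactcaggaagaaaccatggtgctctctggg
Hbb-bs: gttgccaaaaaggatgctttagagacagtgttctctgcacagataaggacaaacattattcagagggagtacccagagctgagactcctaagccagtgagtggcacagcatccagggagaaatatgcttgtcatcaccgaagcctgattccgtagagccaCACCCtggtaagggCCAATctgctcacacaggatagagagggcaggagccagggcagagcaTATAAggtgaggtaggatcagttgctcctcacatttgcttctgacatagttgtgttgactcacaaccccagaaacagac
Hba-a1 held TATAA 1 time, CACCC 2 times and CCAAT 1 time, and Hbb-bs each of them 1 time, with no overlap between matches. Of all promoter windows 24.9% held TATAA, 57.5% CACCC and 37.4% CCAAT, so these boxes are common.

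Neutrophil genes were high in KO3 library 2 alone. S100a9, a calcium-binding protein of neutrophils, had 6.12 FPKM in KO3 library 1, 284 in library 2, and 5.34 and 5.36 in set 2. Camp, an antimicrobial peptide, had 1.40 and 16.6 FPKM in KO3 against 0.978 and 1.69, and Ngp 2.29 and 20.3 against 0.996 and 1.63. Pglyrp1, which binds bacterial walls, had 9.39 and 40.1 FPKM in KO3 against 7.10 and 5.07. For each of them library 1 lay near wild type and library 2 far above it. A neutrophil list drawn up after these values were seen summed to 34.8 FPKM in KO3 library 1, 911 in library 2, and 26.3 and 27.7 in set 2. Its members Elane, Mpo, Cxcr2 and Fcnb were listed at 0 in all 4 libraries. Lcn2, an iron-binding acute phase protein, had 1.68 and 34.5 FPKM against 2.17 and 1.10 (adjusted p = 0.177). None of these genes passed.

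**Figure D4:**
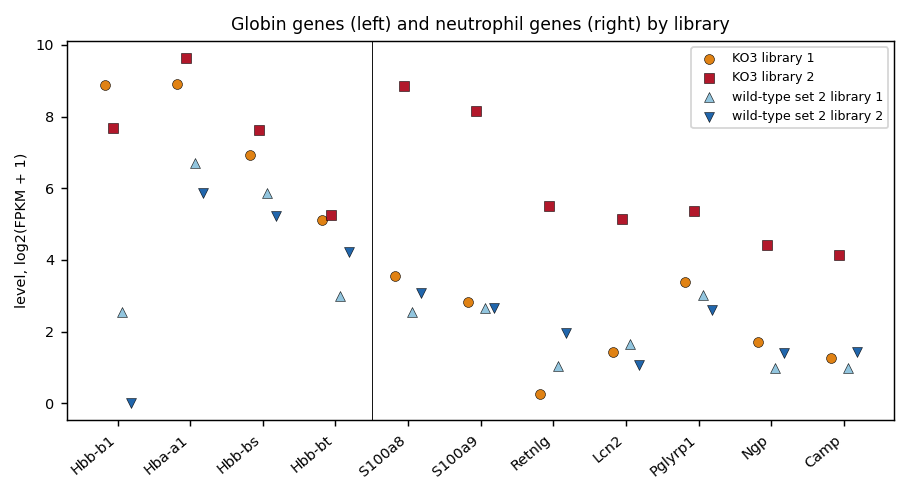
Level on log2(FPKM + 1) of 4 globin genes (left of the line) and 7 neutrophil genes (right) in each of the 4 libraries. Globin genes are high in both KO3 libraries, whereas neutrophil genes are high in KO3 library 2 only, as for S100a9 at 284 FPKM.

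Other genes for which the KO3 libraries parted most are given by value. Above library 1 in library 2 were Maff, a small transcription factor (1.78 and 14.2 FPKM), Ctla2a (5.03 and 30.6) and Gp1bb, a platelet receptor subunit (19.97 and 93.4). Set 2 had 1.13 and 0.582 FPKM of Maff, 2.45 and 3.75 of Ctla2a, and 11.2 and 11.9 of Gp1bb. Below library 1 in library 2 were Glra3, a glycine receptor subunit (3.36 and 0.341 FPKM), Ptpn4, a phosphatase (7.99 and 1.97), Itgb8, an integrin (7.17 and 1.58) and Nebl (10.2 and 2.74). Set 2 had 4.85 and 4.61 FPKM of Glra3, 14.2 and 14.6 of Ptpn4, 11.4 and 10.5 of Itgb8, and 19.1 and 18.6 of Nebl. In these 4 genes library 1 lay below wild type too, and library 2 much lower.

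Peptide hormone genes of the hypothalamus lay above set 2 in 17 of 17 members, 14 with no overlap and none passing (medians 0.41 and 1.27). Over all tested genes 31.3% lay above set 2 with no overlap. Avp, the vasopressin gene, had 38.6 and 145 FPKM in KO3 against 23.2 and 35.8, and Gal, the galanin gene, 6.82 and 15.4 against 3.28 and 2.74 (adjusted p = 0.0563). Pmch, the gene of melanin-concentrating hormone, had 27.5 and 46.1 FPKM against 13.6 and 18.1 (adjusted p = 0.0715). The first library lay near wild type and the second above it for Avp, which was chosen after its values were seen. The list summed to 493 and 594 FPKM in set 2, 1111 and 1188 in set 1, and 736 and 1511 in KO3. KO3 library 1 thus lay below set 1 in this sum. Against all 4 adult wild-type libraries the list median was 0.44, where it was 0.74 against set 2. Brain regions were not labelled.

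Glucocorticoid response genes lay above set 2 in 15 of 18, 13 with no overlap and none passing (medians 0.39 and 0.94). The share above with no overlap was 31.3% over all tested genes. This list summed to 863 and 1233 FPKM in set 2, 2876 and 2975 in set 1, and 1942 and 5025 in KO3. KO3 library 1 thus lay below set 1 here too. Its median was 0.73 against set 2 and 0.74 against all 4 adult wild-type libraries. Mt2, a metal-binding metallothionein, had 562 and 1659 FPKM in KO3 against 197 and 357 (adjusted p = 0.0764), and Nfkbia, an NF-kappaB inhibitor, 23.5 and 78.2 against 14.6 and 11.8 (adjusted p = 0.0715). Sgk1, a kinase induced by corticosteroids, had 66.4 and 88.2 FPKM against 43.1 and 23.2 (adjusted p = 0.0679). Both KO3 libraries exceeded both wild-type libraries for these 3 genes. Genes of the unfolded protein response lay above set 2 in 16 of 17 (medians 0.30 and 0.63), hypoxia genes in 11 of 15 (0.20 and 0.48) and interferon and MHC genes in 11 of 15 (0.21 and 0.44), with no member passing. Under quantile scaling the medians went from 0.44 to 0.22 for the unfolded protein response, from 0.36 to 0.05 for hypoxia and from 0.42 to 0.23 for interferon and MHC genes. Against all 4 adult wild-type libraries the interferon and MHC median was -0.00050. That control joins unlike sets: a list of cerebellum genes summed to 878 and 941 FPKM in set 2 and 240 and 230 in set 1. Circadian clock genes lay below in 16 of 18 (medians -0.07 and -0.41), again with none passing and 6 of the 18 not overlapping set 2, near the background.

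Glial and vascular lists were mixed. Microglial genes lay above set 2 in 11 of 17 (medians 0.38 and 0.29), with none passing. Their median over both KO3 libraries was 0.27, and -0.04 against all 4 adult wild-type libraries. They summed to 295 and 218 FPKM in set 2, 488 and 417 in set 1, and 375 and 447 in KO3. Tyrobp, a signalling adaptor, had 30.1 and 41.7 FPKM in KO3 against 16 and 16.4 (adjusted p = 0.0594), and Ctss, a lysosomal protease, 78.1 and 79.3 against 42.4 and 30.1 (adjusted p = 0.0594). The homeostatic markers Cx3cr1 and P2ry12, chosen after their values were seen, overlapped wild type: Cx3cr1 had 9.54 and 6.41 FPKM against 11 and 8.54. Astrocyte genes lay above set 2 in 7 of 16 and below in 9, and myelin genes lay above in 12 of 18. S100b, a small calcium-binding protein of astrocytes, had 182 and 243 FPKM against 104 and 95.7 (adjusted p = 0.0738). The astrocyte gene Slc1a2 went the other way, with 197 and 118 FPKM against 241 and 249 (adjusted p = 0.217). Under quantile scaling the astrocyte median went from -0.05 to -0.42 and the myelin median from 0.12 to -0.12. Endothelial and pericyte genes lay below set 2 in 12 of 18 (medians -0.04 and -0.44). Of all 13142 tested genes 6286 lay above set 2 and 6856 below.

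Of 16 meningeal and fibroblast genes 1 passed: Mgp, a matrix protein that limits calcification, with 63.6 and 85.8 FPKM in KO3 and 20.6 and 19.51 in set 2 (log2 difference 1.83, SE 0.24, adjusted p = 0.008). Mgp rose by a similar amount in both KO3 libraries, while the list medians were -0.07 and -0.08. Of 11 tested ependymal and cilia genes 1 passed, Dynlrb2, a dynein light chain, with 6.64 and 11.7 FPKM against 2.74 and 2.63 (log2 difference 1.42, adjusted p = 0.0458). For both lists, the share passing as higher over all tested genes was 0.578%. Among histone genes Hist1h2bc rose, with 35.5 and 53.5 FPKM against 12.6 and 14.1 (log2 difference 1.64, adjusted p = 0.0192). Hist1h4k and Hist2h4, multicopy H4 genes, fell: Hist1h4k had 0.848 and 2.17 FPKM against 8.78 and 5.89 (adjusted p = 0.0264), and Hist2h4 2.14 and 0.465 against 4.92 and 10.9 (adjusted p = 0.0404). Reads of such copies can be divided in several ways, so these 3 values are uncertain.

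The remaining named rises were Cxx1b (43.5 and 83.7 FPKM against 11.1 and 14.7, adjusted p = 0.0103) and 4 entries with little annotation. Of these, 2010003O02Rik had 27.8 and 46.1 FPKM against 3.24 and 6.25 (log2 difference 2.73, adjusted p = 0.00426). The entry 2610019E17Rik had 38.1 and 65.6 against 11.8 and 5.17 (adjusted p = 0.0102), and 1500012F01Rik 35 and 86.3 against 10.3 and 12.6 (adjusted p = 0.0196). Gm5480 had 2.30 and 3.53 FPKM in KO3 and was listed at 0 in both set 2 libraries. It met the filter through its KO3 values only, and a 0 may be a removed low value. The remaining falls were led by Rmrp, the RNA of a mitochondrial and nucleolar ribonuclease, with 1.85 and 14.7 FPKM against 34.5 and 60.5 (log2 difference -2.80, adjusted p = 0.0463). Rmrp is a short RNA without a poly(A) tail, and these libraries were made from poly(A) RNA. Tgoln2 had 2.74 and 3.10 FPKM in set 2 and below 0.001 in both KO3 libraries (log2 difference -1.97, adjusted p = 0.00392), while its near-identical copy Tgoln1, chosen after its values were seen, had 35.7 and 24.9 against 37.4 and 36.9. Dppa5a (0.531 and 0.458 FPKM against 2.81 and 2.62), Gm5901 (2.23 and 2.27 against 8.73 and 5.57) and 2810442N19Rik (0.289 and 0.0547 against 1.73 and 1.52) also fell. Tgoln2, Dppa5a and 2810442N19Rik met the filter through their set 2 values only.

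To ask where KO3 departs from KO2, which lacks only the H19-DMR and IG-DMR, the KO3 difference from set 2 was tested against the KO2 difference from set 1 over the 8 adult libraries. Of 12890 genes, 0 passed (0%) with limma, the smallest adjusted p was 0.0691, and 2725 had an unadjusted p under 0.05. The values of KO2 are therefore given side by side only. The 2 comparisons also differ in tissue content. Cerebellum genes summed to 966 and 1280 FPKM in KO3 and 878 and 941 in set 2. They summed to 239 and 283 in KO2 and 240 and 230 in set 1. Ribosomal protein and oxidative phosphorylation genes had medians of -0.01 and 0.00 in KO2 against set 1, and genes of very large proteins 0.07. The genes that rose in KO3 had a median of -0.03 there, and those that fell 0.07. Rasgrf1 had a difference of -2.41 in KO2 and -0.35 in KO3 (adjusted p of the difference between them = 0.159). Red cell genes had a median of 1.63 in KO2, with Hba-a1 at 335 and 388 FPKM in KO2 and 21.7 and 233 in set 1, so the set 1 libraries differed by themselves. Rmrp was low there as well, with 5.32 and 3.26 FPKM in KO2 against 29.5 and 266.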

How the data were processed

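Poly(A) RNA of mouse brain was sequenced on an Illumina instrument, per the labels. The authors deposited FPKM values in 1 table with 1 column per library. Named in the submitters' processing notes, without role or order, are mm9, Cufflinks 2.2.1, TopHat2 2.1.1 and CASAVA. Sources used here do not give annotation, strand or scaling. A leftover header word reads FPKM in 10 of 14 columns; the 4 columns used here carry none and were taken as FPKM. In these 4, 9994 of 23375 genes were listed at 0 throughout and the smallest per-gene maximum above 0 was 1.02 FPKM, so a 0 may be a removed low value. A further 2 entries named no gene.

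A gene was tested if 2 or more of the 4 libraries had 1 FPKM or more, without 11 Mir, Snor and Scarna rows. Group means of log2(FPKM + 1) were fitted to these 4 libraries by limma 3.58.1 (R 4.3.3), 2-sided and with the trend option, adjusted by Benjamini-Hochberg over all tested genes. Residual degrees of freedom were 2 and prior degrees of freedom 10.6. An exact permutation test of 2 against 2 cannot go below p = 0.333. On simulated data with 200 changed genes the fit recovered 62.3% at a log2 change of 1 and 99.6% at 2, with 11.1% and 6.37% of calls false, and 1.4% at 0.5; the test against KO2 recovered 3.8% at 1 and 97.1% at 2. The simulated noise was equal in all groups and drawn for each gene on its own. It held no difference between libraries of a group shared by many genes, such as that between KO3 libraries 1 and 2. The simulated rates therefore need not hold for these libraries.

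Named genes are those at the deleted regions, the 15 largest rises and falls past the threshold without overlap and with a mean of 1 FPKM in 1 group, up to 4 genes of smallest p per list, sex-linked genes, and the 10 widest gaps between KO3 libraries each way where the set 2 libraries differed by under 0.5. Differences from KO2 past the threshold would have been added, and there were none. Not all are printed. Members and lists were chosen with earlier results of these data known.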

Additional observations from a re-analysis of the deposited data

How the results depend on the processing

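Counts of passing genes moved strongly with the settings, while the 31 named genes that passed kept their direction in every alternative in which they could be fitted and passed in 9 to 14 of at most 17. Higher and lower genes were 76 and 11 as reported. They were 28 and 2 with a pseudocount of 0.1, 146 and 46 with 10, 50 and 6 with no filter on low values, and 412 and 108 with a mean of at least 5 FPKM. Both counts were 0 with quantile and with median-of-ratios scaling, where 3210 and 2935 genes had an unadjusted p under 0.05. Prior degrees of freedom were 4.39 and 3.78 in those fits, against 10.6 as reported. With 8 adult libraries in the fit the counts were 633 and 165, with all 14 they were 2103 and 1336, and with all 4 adult wild-type libraries as the control 1 and 1. Leaving out 1 library at a time gave 53 to 2769 higher and 14 to 2830 lower. A lone library is then assumed to vary like the other group. With the replicate block 678 were higher and 378 lower. Libraries of the same number deviated together at r = 0.151 across genes, and with 2 pairs the numbers are not taken to pair the samples. For the difference between KO3 and KO2, where none passed, 1 gene passed with a pseudocount of 0.1, 38 with all 14 libraries and 2 with the replicate block. Leaving out 1 library gave 0 to 4846, the highest without KO3 library 1. The cause of these shifts was not tested. Read depth is unknown, so no counting interval can be given.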
